A study of Homo sapiens with 5 samples.

Results

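Collagens are the triple-helical proteins of the extracellular matrix, and their genes were measured by RNA sequencing in TOV21G, a cell line from an ARID1A-mutated ovarian clear cell carcinoma, before and after it had become resistant to GSK126, an inhibitor of the histone methyltransferase EZH2. The genes described are the protein-coding genes with a symbol of the form COL, number, A, number, found through their Ensembl identifiers. The deposited count table held 43 of the 44 such genes of the annotation among its 30476 genes, and COL22A1 was not analysed here. By the structure of their proteins they comprised 11 fibrillar collagens, 6 type IV chains of basement membranes, 5 type VI chains, the anchoring fibril collagen COL7A1, 3 short chain network collagens, 9 FACITs (fibril-associated collagens with interrupted triple helices), 4 transmembrane collagens, 2 multiplexins and 2 others.

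The series held 5 libraries. One came from untreated parental TOV21G cells, and 4 came from 2 EZH2 inhibitor-resistant (EIR) clones, numbered 3 and 4, each sequenced once without drug and once under GSK126. The clones were picked after the cells had been taken through GSK126 at 5, 10, 15 and 20 uM. The dose and duration in the treated cultures that were sequenced are not given in the sources used here. All libraries share the ARID1A mutation, there was 1 parental library, and each clone is a single picked line. The spread behind a comparison with parental cells therefore comes from the EIR libraries alone, and nothing in the labels says that they were separate cultures beyond the clone and treatment, so p-values measure the spread between these libraries.

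Total counts ranged from 25479238 to 30764963 per library. Of the 5 epithelial and clear cell markers in the table, PAX8 ranged from 3031 to 4491 counts and KRT8 from 4331 to 8176. KRT18 ranged from 11896 to 18015. NAPSA had 2 counts in parental cells, 53 and 50 in clone 3, and 6 and 4 in clone 4. EPCAM, an epithelial adhesion molecule, had 398 counts in parental cells and 426 and 498 in clone 3, against 0 and 1 in clone 4. Of the 7 fibroblast and stromal markers, 2 had more than 3 counts in parental cells and 4 to 6 did in the EIR libraries. Their summed level was 1003 normalized counts in the parental library, against 420 to 719 in the others, most of it ACTA2, while LUM, FAP and THY1 did not exceed 5, 3 and 8 counts. The 2 endothelial markers summed to 21.2 normalized counts at most and the 3 leukocyte markers to 31.2.

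In tissue, fibrillar collagens such as types I, III and V build the fibers of interstitial matrix, while type IV collagen forms the sheet-like network of basement membranes, on which epithelial cells rest. The commonest type IV molecule is a heterotrimer of COL4A1 and COL4A2 chains, and these genes lie head to head on a shared promoter, as do COL4A3 with COL4A4 and COL4A5 with COL4A6. Type VI collagen forms beaded filaments close to cells, FACITs decorate fibrils, and the transmembrane collagen COL17A1 anchors epithelial cells to the basement membrane at hemidesmosomes.

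Promoter sequences are shown for genes on which the results turn, the COL4A1 and COL4A2 pair because partner chains of one heterotrimer start from one stretch of DNA, COL17A1 for its low level in both clones and COL12A1 for its difference between the clones. RefSeq windows on GRCh38.p14 were found for 32 of the 43 genes, with 44 windows in all. The bases between the starts of COL4A1 and COL4A2 number 126, against 418 between COL4A4 and COL4A3 and 379 between COL4A6 and COL4A5. Capitals mark each CG dinucleotide, and the sequences are the stretch between the COL4A1 and COL4A2 starts (chr13:110307158-110307283, plus strand), the 250 bases before the start of COL17A1 (chr10:104085881-104086130, minus strand) and those before the start of COL12A1 (chr6:75206054-75206303, minus strand).
COL4A1/COL4A2: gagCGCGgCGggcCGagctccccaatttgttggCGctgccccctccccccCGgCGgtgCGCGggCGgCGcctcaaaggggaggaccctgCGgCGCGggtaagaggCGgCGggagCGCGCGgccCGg
COL17A1: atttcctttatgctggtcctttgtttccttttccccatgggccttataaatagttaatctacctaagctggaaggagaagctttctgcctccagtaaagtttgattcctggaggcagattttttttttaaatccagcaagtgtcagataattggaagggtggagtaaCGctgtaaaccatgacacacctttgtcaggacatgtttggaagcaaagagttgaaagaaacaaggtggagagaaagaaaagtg
COL12A1: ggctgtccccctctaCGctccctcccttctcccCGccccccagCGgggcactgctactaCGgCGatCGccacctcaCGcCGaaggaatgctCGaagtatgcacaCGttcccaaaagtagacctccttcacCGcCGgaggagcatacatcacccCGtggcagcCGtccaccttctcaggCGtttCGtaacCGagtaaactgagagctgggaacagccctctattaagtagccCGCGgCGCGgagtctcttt
The COL4A1/COL4A2 stretch held 20 CG dinucleotides, a number reached by 5.78% of 35114 RefSeq windows over the same length before the start, and its GC content was 80.2%. It contained CCAAT, which 21.1% of windows hold over that length, and GGGCGG, which 34.6% hold, searching both strands. The COL17A1 window differed in composition, with 1 CG dinucleotide and a GC content of 40.4%, and it contained CCAAT and TATAAA, held by 32% and 10.7% of all 250-base windows. The COL12A1 window had 21 CG dinucleotides, a number reached by 30.2% of windows, and contained GGGCGG, held by 42.6%. Over the 44 collagen windows, CCAAT was found in 12, GGGCGG in 24 and TATAAA in 8. These letter matches describe the windows and do not show binding.

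Type IV collagen made up most of the collagen RNA in every library. Collagens took 0.279% of all counts in parental cells, 0.213% and 0.222% in untreated and GSK126-treated clone 3, and 0.169% and 0.185% in untreated and treated clone 4. In bulk RNA, fewer cells of a type and less RNA per cell cannot be told apart. Measured per kilobase of transcript, so that genes of different length can be set side by side, type IV chains held 70.6% of the collagen total in parental cells and 60.1% to 64.2% in the EIR libraries. The multiplexin COL18A1, whose C-terminal fragment is endostatin, accounted for nearly all of the next class, at 15.7% in parental cells and 16.7% to 18.6% in EIR cells. Short chain collagen, almost all of it COL8A1, was 1.35% in parental cells against 5.36% to 10.2% in EIR cells, and the transmembrane class was 5.13% against 0.846% to 1.25%. Fibrillar collagens held 1.71% in parental cells and 2.56% to 3.99% in EIR cells.

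**Figure D1:**
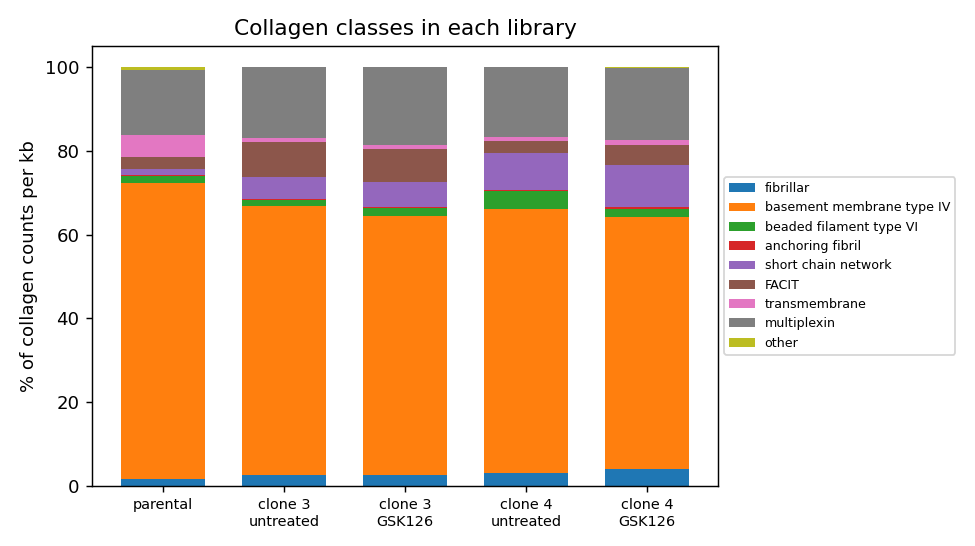
Share of each structural class in the summed collagen level of each library (percent of normalized counts per kilobase, 1 stacked bar per library). Type IV is the largest block in all 5 libraries, at 60.1% to 70.6%, and the short chain block is larger in the EIR bars than in the parental bar.

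To ask how the resistant cells differed from parental cells, DESeq2 was run on the 4 EIR libraries against the parental one (two-sided Wald test, Benjamini-Hochberg adjustment over all genes tested, threshold 0.05). Of 29 collagen genes that received an adjusted p, 5 rose and 8 fell. Over all genes 25.5% were called, 12.4% higher and 13.2% lower, and the median log2 fold change was 0.43 over the collagen genes against 0.00254 over all genes. The edgeR quasi-likelihood test, which called 11.7% of all genes, called 4 collagen genes: COL8A1 higher and COL4A5, COL17A1 and COL26A1 lower. Since 2 libraries came from each clone, the libraries of a clone were also summed, which left 6 calls (COL1A2, COL4A2, COL6A5, COL8A1, COL17A1 and COL26A1), and treatment as a covariate left 4 (COL6A5, COL8A1, COL17A1 and COL26A1). Without either clone 3 library 8 collagen genes were called. The libraries also differed by transcript composition. Over 11377 genes, Spearman's rho between transcript GC content and the log2 ratio of an EIR library to the parental library was -0.50 to -0.40, given as a description across genes of libraries that share the parental denominator. The 5 collagen genes that rose had a median GC content of 46.5% and the 8 that fell 60.4%. With a correction for this trend, 5 rose and 4 fell. The part of GC content in single results was not tested beyond that correction. The calls of named collagen genes that it ended or made are given with the results.

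**Figure D2:**
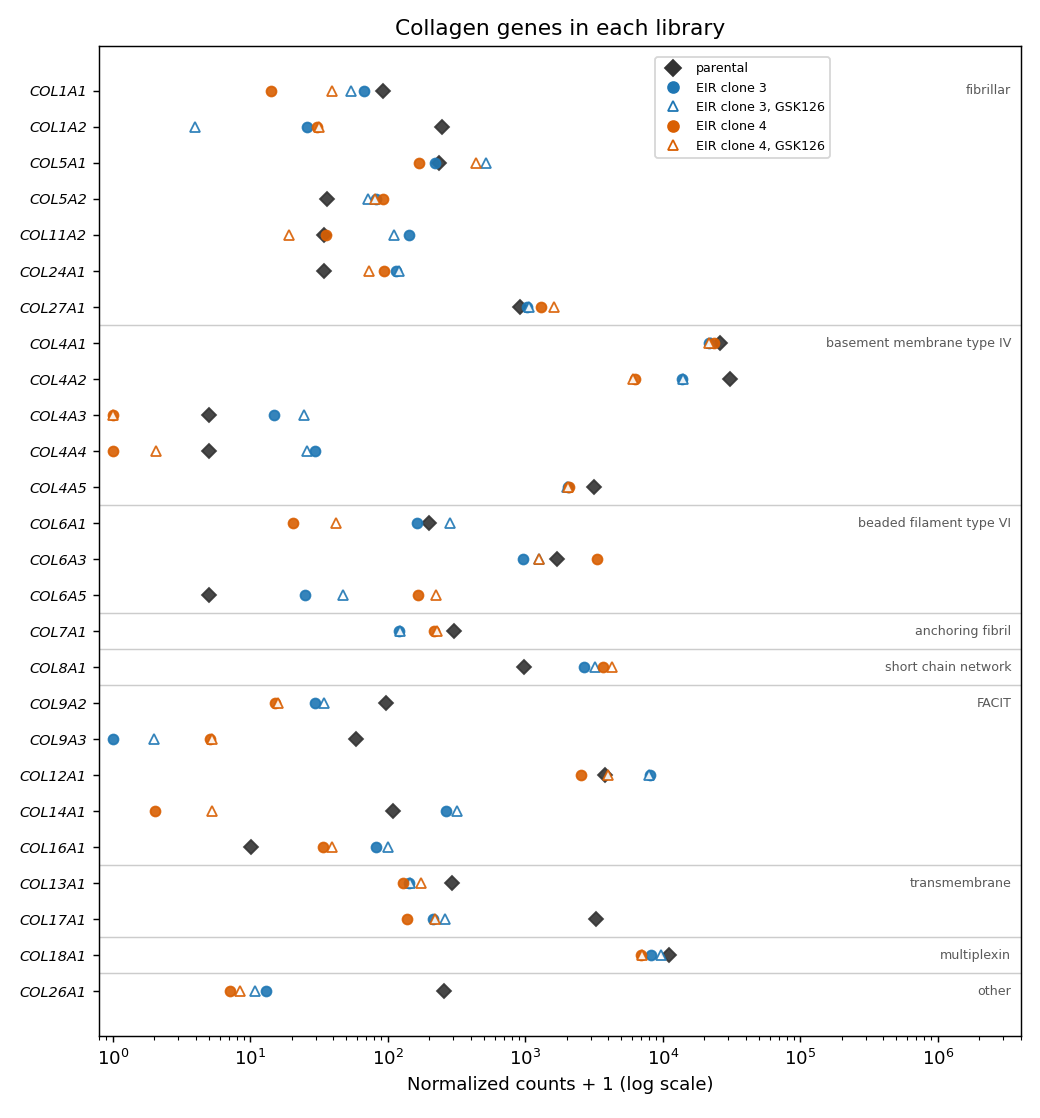
Normalized counts plus 1 (log axis) of the 26 collagen genes described by name, grouped by class, with 1 symbol per library and open triangles for GSK126-treated libraries. The parental diamond lies to the right of all EIR symbols for COL17A1, COL26A1 and COL4A2, and to their left for COL8A1 and COL6A5.

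Among the type IV chains, COL4A2 fell in both clones and COL4A1 did not pass the test in either, so that the ratio of the partner chains shifted. COL4A1 (ENSG00000187498) stood at 26122 normalized counts in parental cells, 21708 and 22510 in untreated and treated clone 3, and 23404 and 21676 in untreated and treated clone 4. COL4A2 (ENSG00000134871) had 30836 in parental cells, 13918 and 14097 in clone 3, and 6234 and 6114 in clone 4. The levels of COL4A2 thus formed 3 separate tiers, each clone tight and clone 4 the lowest, whereas the COL4A1 values of the EIR libraries lay within a narrow band below the parental value. Per kilobase, COL4A2 was at 1.2 times COL4A1 in parental cells, 0.65 and 0.635 times in clone 3, and 0.27 and 0.286 times in clone 4.

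The fall of COL4A2 was -1.14 in clone 3 (log2 fold change, SE 0.15, DESeq2 adjusted p = 1.93e-12) and -2.32 in clone 4 (SE 0.15, adjusted p = 1.94e-50), and it passed in every alternative run for the single clones. Over both clones together it was -1.61 (SE 0.54, adjusted p = 0.0149), a call lost in edgeR (0.0959), with the GC correction (-1.18, 0.0845), with treatment as a covariate (0.306) and without the GSK126-treated clone 3 library (-1.82, 0.127). COL4A1 differed by -0.23 (SE 0.14, adjusted p = 0.223), or 0.07 after the GC correction. The transcripts have GC contents of 55.2% and 61.8%. On hg19 the genes lie on chromosome 13, COL4A1 at 110801310 to 110959504 on the minus strand and COL4A2 at 110958159 to 111165556 on the plus strand, and their annotated spans overlap by 1346 bases on opposite strands. Whether counting used strand is not given in the sources used here, so reads in that overlap could be assigned to either gene.

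COL4A5, which forms a separate type IV network with COL4A6 or with COL4A3 and COL4A4, fell from 3167 normalized counts in parental cells to 2051 and 2010 in clone 3 and 2072 and 2046 in clone 4. The 4 EIR values are nearly equal and all below the parental value. Its log2 fold change was -0.63 (SE 0.14, DESeq2 adjusted p = 5.74e-05; 0.0307 in edgeR), and the call was lost on summing the libraries of each clone (adjusted p = 0.128) or treatment was a covariate (0.0532). Its head-to-head partner COL4A6, too low for the rule on named genes, stood at 1.66 normalized counts per kilobase in parental cells, and at 1.98 to 3.99 in EIR cells, where COL4A5 stood at 485 and 308 to 317. COL4A3 and COL4A4 were near the floor of detection in parental cells, with 4 counts each. Clone 3 had 15 and 24 counts of COL4A3, and no count was found in the pair of clone 4 libraries. For COL4A4 the counts were 31 and 25 in clone 3, and 0 and 1 in clone 4. Neither passed the test against parental cells in either clone with DESeq2, which gave COL4A3 no adjusted p in clone 4. In edgeR, COL4A4 was called in clone 3 (adjusted p = 0.0355). A noncoding transcript on the opposite strand, MFF-DT, overlaps COL4A3 and had up to 37 counts.

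**Figure D3:**
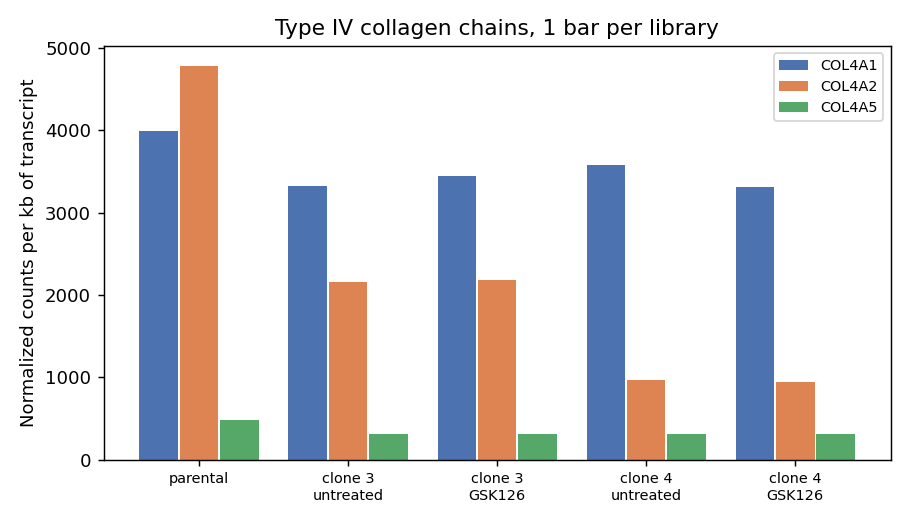
Normalized counts per kilobase of transcript for COL4A1, COL4A2 and COL4A5 in each library (1 bar per library, no error bars because each bar is 1 library). COL4A1 lies between 3314 and 3994 in all 5 libraries, while COL4A2 is 4784 in parental cells, 2159 and 2187 in clone 3 and 967 and 949 in clone 4.

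Of the 11 fibrillar collagens, 8 were tested against parental cells, and COL5A2 and COL24A1 rose while COL1A2 fell, where 25.5% of all genes were called. COL1A2 (ENSG00000164692), the second chain of type I collagen, had 247 normalized counts in parental cells, 25 and 2.96 in untreated and treated clone 3, and 29.5 and 30.7 in untreated and treated clone 4. All EIR values lay far below the parental value, and the treated clone 3 library was the lowest. The log2 fold change was -3.49 (SE 1.00, DESeq2 adjusted p = 0.00393), with 0.0598 in edgeR and 0.063 with treatment as a covariate. Its partner COL1A1 had 91.7 normalized counts in parental cells, 65.7 and 53.4 in clone 3 and 13.2 and 38.1 in clone 4. The COL1A1 difference over both clones of -1.10 (SE 0.87) did not pass (adjusted p = 0.385). In clone 4 alone it was -1.84 (SE 0.77, DESeq2 adjusted p = 0.051). That difference was called in edgeR (0.0406) and in DESeq2 with TMM scaling of depth (0.0483), and not with the GC correction (-1.35, 0.196). Clone 3 did not pass (-0.62, SE 0.75, adjusted p = 0.613). Per kilobase, COL1A2 was at 3.14 times COL1A1 in parental cells, 0.443 and 0.0648 times in clone 3, and 2.6 and 0.939 times in clone 4. Both type I genes were low in every library beside COL4A1, which did not fall below 3314 normalized counts per kilobase.

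COL5A2, a type V chain that sets fibril diameter, had 35.3 normalized counts in the parental library, and its EIR values ran from 71.2 to 91.6. Its rise of 1.2 (SE 0.45, DESeq2 adjusted p = 0.0321) was lost in edgeR (0.0827) and without any 1 of the 4 EIR libraries (0.104 to 0.153). COL24A1, a fibrillar collagen of developing bone, had 33.2 in parental cells, 114 and 120 in clone 3 and 92.6 and 71.9 in clone 4. Its rise was 1.58 (SE 0.51, DESeq2 adjusted p = 0.0111; 0.0713 in edgeR) and was lost without either clone 3 library (0.0761 without the untreated and 0.0829 without the treated one). COL27A1, a fibrillar collagen of cartilage and other tissues and the most abundant of the class here, had 915 normalized counts in parental cells, 1026 and 1056 in clone 3 and 1310 and 1622 in clone 4. It rose in clone 4 (0.68, SE 0.22, adjusted p = 0.00872), a call lost without the treated clone 4 library (0.0981) or without either clone 3 library (0.084 in both fits), and in clone 3 it passed only with the GC correction (0.58, adjusted p = 0.0202). COL3A1, singled out after its values were seen, had 1 count in parental cells, 31 and 1 in untreated and treated clone 3, and 20 and 17 in untreated and treated clone 4.

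Among type VI chains the pattern differed by chain. COL6A5 (ENSG00000172752) rose from 4.03 normalized counts in parental cells to 24.1 and 46.5 in clone 3 and 165 and 223 in clone 4, so the libraries ranked by clone with no overlap. The rise over both clones was 4.83 (log2, SE 1.32, DESeq2 adjusted p = 0.00219), with 0.135 in edgeR, while each clone alone passed in edgeR too (0.0153 and 0.00144). In clone 3 the DESeq2 call was lost without the treated clone 3 library (0.0954). COL6A1, which pairs with COL6A2 and COL6A3 in the classical type VI molecule, had 199 in parental cells, 162 and 285 in clone 3 and 19.3 and 41.3 in clone 4. Clone 4 was lower than parental cells by -2.72 (SE 0.55, adjusted p = 7.89e-06), and clone 3 did not pass (0.16, SE 0.52, adjusted p = 0.877). COL6A3, the largest classical chain, had 1712 in parental cells, 967 and 1255 in clone 3, and 3328 and 1266 in untreated and treated clone 4. The untreated clone 4 library stood apart from the other EIR libraries for this gene. Its EIR difference of -0.01 (SE 0.91, adjusted p = 0.997) averages these values, and without the treated clone 4 library COL6A3 was called higher in clone 4 than in parental cells (0.96, adjusted p = 0.000309). It was called lower in clone 3 without the untreated (-0.62, 0.0202) or the treated (-0.61, 0.0112) clone 4 library.

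The network collagen COL8A1 rose in both clones, and the anchoring fibril collagen COL7A1 fell in clone 3. COL8A1, a short chain collagen of vascular and corneal matrix, had 974 normalized counts in parental cells, 2669 and 3243 in clone 3 and 3676 and 4295 in clone 4. Every EIR value lay above the parental value, and both clone 4 values lay above those of clone 3. The log2 fold change was 1.83 (SE 0.30, DESeq2 adjusted p = 6.94e-08; 0.0274 in edgeR), past the threshold in all 11 alternatives. COL7A1, which ties the basement membrane of skin to the dermis, had 300.1 in parental cells, 119 and 123 in clone 3 and 218 and 225 in clone 4. It fell in clone 3 (-1.31, SE 0.37, adjusted p = 0.00268), a call lost with the GC correction (-0.86, 0.0683) and without either clone 3 library (0.101 without the untreated and 0.0971 without the treated one). In clone 4 the difference of -0.44 (SE 0.37) did not pass (adjusted p = 0.395).

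Of 9 FACITs, 6 were tested, with COL16A1 higher and COL9A2 and COL9A3 lower in EIR cells, where 25.5% of all genes were called. COL16A1, a FACIT of dermis and cartilage, had 9.06 normalized counts in parental cells, 80.5 and 98.8 in clone 3 and 32.6 and 38.1 in clone 4. It rose by 2.79 (SE 0.92, DESeq2 adjusted p = 0.0137), with 0.102 in edgeR, and the call was lost without the untreated (0.0599) or the treated (0.0673) clone 3 library. The type IX genes COL9A2 and COL9A3, whose chains assemble together on cartilage fibrils, both fell. COL9A1, the remaining type IX gene, had 0 counts in parental cells and did not exceed 2 counts in any library. COL9A2 had 96.7 in parental cells and 14.2 to 33.6 in EIR cells (-2.08, SE 0.74, adjusted p = 0.0246), with 0.0636 in edgeR, 0.107 after the GC correction, and 0.0658 to 0.0735 without 1 of 3 EIR libraries, the untreated clone 3, untreated clone 4 and treated clone 4. COL9A3 had 57 counts in parental cells and 0, 1, 4 and 4 in untreated clone 3, treated clone 3, untreated clone 4 and treated clone 4. The ratio of depth-scaled counts, EIR to parental, was 0.039 (95% interval 0.017 to 0.0793, counting error only), with an adjusted p of 0.0104 in DESeq2 and 0.0538 after the GC correction. The gene TCFL5 overlaps COL9A3 by 155 bases on the opposite strand and had up to 1055 counts.

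COL12A1 and COL14A1 rose in clone 3, and COL14A1 fell in clone 4. COL12A1, a long FACIT of dense connective tissue and stressed matrix, had 3785 normalized counts in parental cells, 8134 and 7920 in clone 3 and 2529 and 3973 in clone 4. It rose in clone 3 (1.08, SE 0.23, DESeq2 adjusted p = 2.57e-05) and did not pass in clone 4 (-0.22, SE 0.23, adjusted p = 0.511). Without the treated clone 4 library, clone 4 was called lower (-0.58, adjusted p = 0.00179). COL14A1, a FACIT that regulates fibril growth, had 109 in parental cells, 263 and 318 in clone 3, and 1 and 4 counts in clone 4. It rose in clone 3 (1.42, SE 0.46, adjusted p = 0.0105), a call lost without either clone 3 library (0.181 and 0.379), and in clone 4 the count ratio to parental cells was 0.0238 (95% interval 0.00759 to 0.0574; adjusted p = 2.79e-10). The intervals cover counting error only.

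Among the membrane-bound and remaining collagens tested, DESeq2 called 2 of 2 transmembrane, 0 of 1 multiplexin and 1 of 2 other genes in EIR cells. Those called were lower, where 13.2% of all genes were called lower, and these classes are small. COL17A1 (ENSG00000065618) had 3263 normalized counts in parental cells, 212 and 261 in untreated and treated clone 3, and 136 and 221 in untreated and treated clone 4. Parental cells stood alone, and the EIR values of the clones interleaved. The fall of -3.97 (log2, SE 0.37, DESeq2 adjusted p = 2.6e-24; 0.00792 in edgeR) corresponds to 15.7-fold and passed in all 11 alternatives. COL26A1, a small collagen described in gonads, had 256 in parental cells, 12 and 9.88 in clone 3 and 6.1 and 7.41 in clone 4, a fall of -4.84 (SE 0.60, adjusted p = 5.77e-14; 0.00908 in edgeR) that also passed in all 11. COL13A1, a transmembrane collagen of adhesion sites and neuromuscular junctions, had 290.1 in parental cells and 129 to 175 in EIR cells (-0.97, SE 0.31, adjusted p = 0.0115). That call was lost in edgeR (0.0684), with the GC correction (-0.55, 0.231) and without the untreated clone 3, untreated clone 4 or treated clone 3 library (0.0707 to 0.0849). COL18A1 had 11164 in parental cells, 8238 and 9721 in clone 3 and 6973 and 7082 in clone 4. Its fall in clone 4 (-0.67, SE 0.17, adjusted p = 0.000527) ended with the GC correction (-0.09, 0.682), its transcript having a GC content of 67.2%, and SLC19A1 overlaps it on the opposite strand with up to 644 counts.

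The remaining 17 collagen genes did not reach a mean of 50 normalized counts and passed no DESeq2 comparison. They had between 0 and 32 counts in any library. In edgeR, 2 of them passed in a single clone against parental cells, COL19A1 higher in clone 3 (adjusted p = 0.0381) and COL28A1 higher in clone 4 (0.0477), both named after their values were seen. Over all 43 genes, 7 had at most 3 counts in every library, the floor used here for a count that cannot be told from 0, and 23 had more than 3 counts in every library.

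Each clone was also compared with the parental library by itself, and these 2 comparisons share that library, so their agreement is not an independent result. In clone 3, 7 collagen genes rose and 8 fell of 30 tested, where 29.2% of all genes were called, 14.7% higher and 14.5% lower. edgeR called 10 higher and 8 lower against a background of 34.9%, and with the GC correction 8 were higher and 6 lower. The count was 8 without the untreated and 7 without the treated clone 3 library. In clone 4, 3 rose and 10 fell of 29 tested, where 32.9% of all genes were called, 14.7% higher and 18.3% lower. There edgeR called 7 higher and 11 lower, against 37.6% of all genes, and with the GC correction 4 were higher and 8 lower. The median log2 fold change of the tested collagen genes was 0.41 in clone 3 and -0.34 in clone 4, the latter becoming 0.13 after the GC correction. Of the genes called over both clones, COL13A1, COL16A1 and COL24A1 passed in clone 3 and not in clone 4 with DESeq2. COL9A2 passed in clone 4 only, and COL5A2 in neither clone. In edgeR each of these genes passed in both clones. With the GC correction COL13A1 lost its clone 3 call (-0.64), COL16A1 passed in clone 4 (2.47) and COL9A3 received no adjusted p in clone 4.

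**Figure D4:**
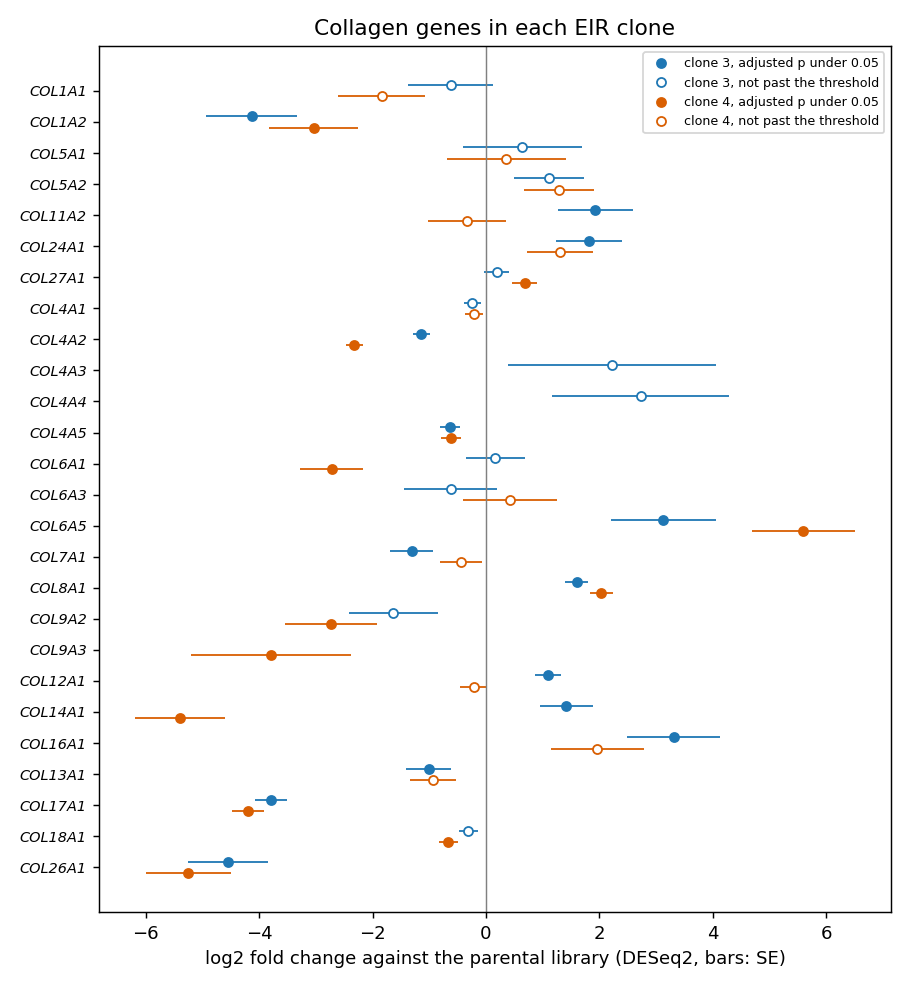
Log2 fold change of each named collagen gene against the parental library, with clone 3 in blue and clone 4 in orange (DESeq2, bars show the standard error, filled points passed the adjusted p threshold of 0.05). Points are left out where a clone had 3 counts or fewer in all. Both clones sit far left for COL17A1 and COL26A1 and right for COL8A1 and COL6A5, while COL12A1 and COL14A1 are right of 0 in clone 3 only.

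The clones were then compared with each other, 2 libraries against 2 with treatment as a covariate, a comparison that does not use the parental library. Of 30 collagen genes tested, COL6A5 was higher in clone 4 and 7 were lower: COL11A2, COL4A2, COL4A3, COL4A4, COL6A1, COL12A1 and COL14A1. Over all genes 9.81% were called, 3.3% higher and 6.52% lower in clone 4. Without the untreated clone 3 library 5 collagen genes were called. All 8 were also called in edgeR, which called 12 collagen genes against 15.1% of all genes, and all 8 with the GC correction. That correction also called COL8A1 (0.44) and COL27A1 (0.58) higher in clone 4, giving 3 higher and 7 lower. The median log2 difference of the collagen genes was -0.48, against -0.0037 over all genes.

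For COL14A1 the clone 4 to clone 3 ratio of depth-scaled counts was 0.00895 (95% interval 0.0029 to 0.021; DESeq2 adjusted p = 5.53e-17). COL4A3 was at least 6.04-fold lower in clone 4, taking 3 counts in each library as the floor, and COL4A4 had a count ratio of 0.0194 (95% interval 0.000482 to 0.112). Without the untreated clone 3 library neither gene received an adjusted p. Without the treated clone 3 library COL4A3 received none and COL4A4 did not pass (0.163), nor did COL4A4 without the untreated clone 4 library (0.058). COL6A1 was lower by -2.92 (SE 0.46, adjusted p = 1.18e-08), COL12A1 by -1.35 (SE 0.20, adjusted p = 5.68e-10) and COL4A2 by -1.19 (SE 0.16, adjusted p = 5.16e-12). COL11A2, a chain of the minor fibrillar collagen XI, stood at 143 and 111 normalized counts in clone 3, and at 34.6 and 18 in clone 4, against 33.2 in parental cells (-2.33, SE 0.56, adjusted p = 0.000829), and lost the call without the untreated clone 3 library (0.177). Its rise in clone 3 against parental cells (1.93, SE 0.66, adjusted p = 0.0161) was lost without the untreated (0.335) or the treated (0.185) clone 3 library. COL6A5 was higher by 2.50 (SE 0.47, adjusted p = 4e-06). The clones that differed in these genes also differed in EPCAM, whose part in the result was not tested.

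To ask how EIR cells differed with and without drug, the 2 GSK126-treated EIR libraries were compared with the 2 untreated ones. How long the untreated cultures had been without GSK126 is not given in the sources used here. No collagen gene passed in DESeq2 (42 tested, 1 with an unadjusted p under 0.05), in edgeR (30 tested, 1 under 0.05), or with the clone number as a block (2 under 0.05 in DESeq2 and 4 in edgeR). Over all genes, 0.00335% were called in DESeq2, 0% in edgeR and 0.0134% in DESeq2 with the block. The gene nearest to the threshold was COL5A1, the type V chain that initiates fibril assembly. It had 220 and 516 normalized counts in untreated and treated clone 3, 168 and 437 in untreated and treated clone 4, and 236 in parental cells. Both treated libraries lay above all other libraries. The log2 difference was 1.28 (SE 0.32, unadjusted p = 7.51e-05, DESeq2 adjusted p = 0.747), and with the block the adjusted p was 0.0587 in DESeq2 and 0.246 in edgeR.

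Within the clones, the ratio of the treated to the untreated library varied by gene. Of the 26 named genes, 13 were higher in the treated library of both clones, 3 lower in both and 9 opposite, and COL4A3 was at 0 in both libraries of clone 4. In 13 of the 26 the treated library lay within 1.5-fold of the untreated one in both clones. Of the 9 named genes that averaged 500 or more normalized counts, 6 lay within 1.5-fold in both clones. The abundant type IV chains were among them. COL4A1 differed by 0.05 in clone 3 and -0.11 in clone 4 (log2 ratio of normalized counts plus 0.5), COL4A2 by 0.02 and -0.03, and COL4A5 by -0.03 and -0.02. COL1A2 differed by -2.88 in clone 3 and 0.06 in clone 4, COL1A1 by -0.30 and 1.49, and COL6A3 by 0.38 and -1.39. In treated clone 3 COL1A2 rested on 3 counts, against 27 in the untreated library. COL12A1 was nearly equal in clone 3 (-0.04) and higher in treated clone 4 (0.65), while COL17A1 was higher in the treated library of both clones (0.30 and 0.70). These are 1 library pair per clone and carry no test of their own.

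**Figure D5:**
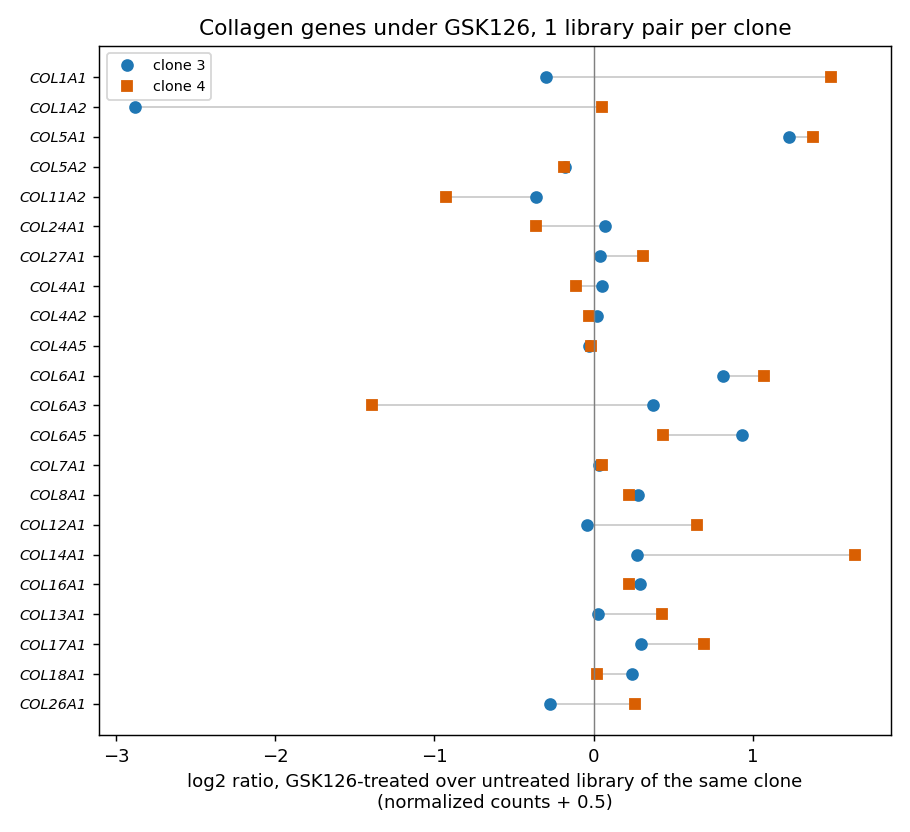
Log2 ratio of the GSK126-treated to the untreated library of the same clone for the 22 collagen genes that averaged 50 or more normalized counts (circles clone 3, squares clone 4, 1 library pair each). COL5A1 is the gene with both points right of 1, COL1A2 and COL6A3 have 1 point far left each, and COL4A1, COL4A2 and COL4A5 lie near 0.

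A list of 56 genes that modify, secrete, cleave, cross-link, bind or degrade collagen gave the context for these transcripts, and 55 were in the table. Against parental cells 4 rose and 16 fell of 43 tested, where 25.5% of all genes were called, with a median log2 fold change of -0.56. edgeR called 2 higher and 10 lower, against 11.7% of all genes, and the GC correction left 4 higher and 10 lower. By clone, 6 rose and 21 fell of 45 in clone 3, where 29.2% of all genes were called, and 5 rose and 19 fell of 43 in clone 4, where 32.9% were. The clone 3 count was 18 without the treated clone 3 library. The hydroxylation group of the list holds the hydroxylases, which modify proline and lysine in the chains. It also holds genes that are not hydroxylases, such as PPIB, COLGALT1 and COLGALT2. In DESeq2, 1 member was higher and 8 lower of 14 tested, where 25.5% of all genes were called. In edgeR, which called 11.7% of all genes, 0 were higher and 4 lower, and with the GC correction 1 was higher and 4 lower. Within this group PLOD1, a lysyl hydroxylase, had 6501 normalized counts in parental cells, against 2024 to 2776 in EIR cells (-1.45, SE 0.24, adjusted p = 5.41e-08). P3H3, a prolyl 3-hydroxylase family member, had 1514 and 311 to 569.4 (-1.82, SE 0.43, adjusted p = 0.000269). BMP1, which removes the C-propeptide of fibrillar procollagens, had 1056 in parental cells and 455 to 476 in EIR cells (-1.19, SE 0.18, adjusted p = 1.73e-09).

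Of 6 collagen receptors tested, 2 rose and 3 fell, and of 3 collagen-degrading genes 1 rose and 1 fell. The share called over all genes was 25.5%, 12.4% higher and 13.2% lower, and these groups are small. ITGA2 and ITGA1, which are alpha chains of collagen-binding integrins, rose, while ITGA10 and ITGA11 did not exceed 12.7 and 3.05 normalized counts. Their beta partner ITGB1, named like those 2 after its values were seen, had 102653 normalized counts in parental cells, against 54664 to 74780 in the EIR libraries (-0.76, SE 0.25, DESeq2 adjusted p = 0.0128; 0.0725 in edgeR). ITGA2 had 44.3 normalized counts in parental cells, 3478 and 3609 in clone 3 and 882 and 954 in clone 4 (5.65, SE 1.16, DESeq2 adjusted p = 2.14e-05; 0.0553 in edgeR), and ITGA1 had 117 in parental cells, 1341 and 1286 in clone 3 and 836 and 1042 in clone 4 (3.27, SE 0.35, adjusted p = 3.03e-18). MRC2, the endocytic collagen receptor, fell from 12857 in parental cells to 1545 to 1709 in EIR cells (-2.98, SE 0.16, adjusted p = 3.62e-77). The membrane-anchored collagenase MMP14 had 2569 in parental cells, 71.3 and 77.1 in clone 3 and 15.3 and 7.41 in clone 4 (-5.91, SE 1.52, adjusted p = 0.00104). The secreted collagenase MMP1 went the other way, from 9.06 in parental cells to 225 and 610 in untreated and treated clone 3 and 156 and 260 in untreated and treated clone 4 (5.11, SE 0.86, adjusted p = 1.34e-07). No gene of the list passed for GSK126 in DESeq2 (55 tested, 1 with an unadjusted p under 0.05) or in edgeR (44 tested, 0 under 0.05).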

How the data were processed

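Total RNA libraries (stranded kit) of parental TOV21G cells and of EIR clones 3 and 4, untreated and GSK126-treated, were sequenced, and the deposited table gave estimated counts per Ensembl gene in whole numbers. Per the labels, the authors aligned reads with Bowtie2 to hg19 and estimated gene counts with RSEM (version 1.2.3 in the submitters' processing notes, another version in the study's methods). The Ensembl release, and whether counting used strand, are not given in the sources used here. All 5 count columns were used.

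Gene names, classes and transcript GC content came from GENCODE release 44 lifted to GRCh37, which matched 29203 of 30476 identifiers (unmatched rows held 3.06% of counts), and promoter windows from RefSeq on GRCh38.p14. Counts were analysed in R 4.3.3 with DESeq2 1.42.0 (median-of-ratios scaling, two-sided Wald test, Benjamini-Hochberg adjusted p under 0.05), the test named in the study's methods. edgeR 4.0.16 was an alternative, with genes of at least 10 counts in 2 libraries. GC correction removed each library's median deviation in 20 GC bins. Groups came from the sample labels. Normalized counts are counts divided by size factors, and within-clone log2 ratios add 0.5. The code was tested on simulated counts.

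The collagen genes, the lists and the tests were chosen with earlier results of these data known. Collagen genes were named where the mean over 5 libraries reached 50 normalized counts or a comparison called them, which gave 26 (22 by level and 4 by call). Of the list of modifying genes, up to 8 were named, those with the largest fold change among genes called in EIR cells with a mean of at least 100. Markers not in the table were not analysed here. Same-numbered libraries come from the same clone, and their deviations correlated at 0.862 over 11564 genes, so the clone number was used as a block in an alternative. PCR duplicates were not marked by molecular identifiers, so count intervals (exact, 95%) cover counting error only. Depth was 25479238 to 30764963 counts per library.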

Additional observations from a re-analysis of the deposited data

Results flagged for a closer look

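COL6A3 stood at 3328 normalized counts in untreated clone 4, against 967 to 1266 in the other EIR libraries, and its gap to the nearest of them was 0.873 of the range over the 4 EIR libraries, above the critical value for 4 samples. Chance gives such a gap in about 1 in 20 groups of replicates, so among many genes some such gaps arise by chance. The 4 EIR libraries are different combinations of clone and treatment and not replicates, so the gap describes these values and tests nothing.

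The clones differed from each other for 8 collagen genes (DESeq2, clone 4 minus clone 3, log2), in a test that does not use the parental library. Each clone is a single picked line, and whether the difference arose before or during selection was not tested. The fitted differences were -2.33 for COL11A2 (adjusted p = 0.000829), -1.19 for COL4A2 (5.16e-12), -2.92 for COL6A1 (1.18e-08), -1.35 for COL12A1 (5.68e-10), -6.84 for COL14A1 (5.53e-17) and 2.5 for COL6A5 (4e-06). Those of COL4A3 (-6.58, adjusted p = 0.0207) and COL4A4 (-5.75, 0.0238) are fitted values set by the fit at 0 or 1 count in clone 4 and are not bounds. Without 1 EIR library, 5 to 9 collagen genes were called, and COL4A3, COL4A4 and COL11A2 are the genes that lost a call.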

How the results depend on the processing

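Over the alternatives, 1289 values of named collagen genes were recomputed, of which 1103 kept direction and side of the threshold, 84 lost and 31 gained the threshold, 71 without a call changed sign, and 0 called values changed direction. The 13 collagen genes called in EIR cells became 4 in edgeR, 6 with the libraries of each clone summed and 4 with treatment as a covariate, and ranged from 8 to 11 without 1 EIR library. Without 1 EIR library, the 15 calls in clone 3 ranged from 7 to 14, the 13 in clone 4 from 10 to 13 and the 8 between the clones from 5 to 9. These fits between the clones had no treatment covariate, an alternative chosen after seeing the data, and where they left a clone with 1 library, it was assumed to vary like the other groups. Of the list of modifying genes, 20 were called in EIR cells by DESeq2 and 12 by edgeR, and over all genes 4157 and 1986. For GSK126, the replicate block (pairing by clone) left 0 collagen genes called, as did all other alternatives. With 1 parental library, the spread of parental cultures was not measured, and genes with few counts limit what can be seen: 20 of 43 collagen genes had 3 counts or fewer in at least 1 library.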
